A study of Mus musculus with 9 samples.

Results

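The nitric oxide and cGMP relaxation pathway was followed through 10 genes of the mouse aorta: Nos3, Gucy1a1, Gucy1b1, Npr1, Npr3, Prkg1, Mrvi1, Pde3a, Pde5a and Pde1a. The genes were chosen by name for their known place in the pathway, but with earlier results of these data known. Shares of the 10 genes set beside all genes below are therefore descriptive. All 10 were found among the 37668 genes of the deposited table and among the 14225 genes at 1 FPKM or more in at least 1 group. FPKM is the number of sequenced fragments of a gene, scaled to the length of its transcript and to the mapped fragments of the library.

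Aortas of male mice aged 90 days on the background 129T2SvEmsJ:C57Blk/6J were sequenced in 3 groups of 3 libraries. All groups carried the floxed AT1ar allele, which encodes the angiotensin II type 1a receptor. In the Cdh5Cre group it was combined with a Cdh5-Cre transgene, driven from an endothelial promoter, in the Sm22Cre group with an Sm22-Cre transgene, driven from a smooth muscle promoter, and the floxed group had no Cre transgene. An effect of Cre itself and an effect of the receptor's loss cannot be told apart in this design, and although the series title names Marfan syndrome, the labels give no Marfan allele. The deposited values are 1 FPKM per gene and group, so the spread between libraries is unknown, no test could be made and no difference below has a replicate check.

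The targeted gene, Agtr1a, stood at 1.32 FPKM in Cdh5Cre, 1.21 in Sm22Cre and 1.75 in floxed aortas, and so was lower in both Cre groups, by 24.6% in Cdh5Cre and by 31.2% in Sm22Cre. At this low level, and in whole aorta, which also holds cells that neither transgene targets, the values are a weak check of the labels. The FPKM sums were 607860 in Cdh5Cre, 500015 in Sm22Cre and 495724 in floxed aortas. Smooth muscle identity was plain in all groups from Tagln, an actin-binding protein of smooth muscle whose status was FAIL, at 4477 FPKM in Cdh5Cre, 4112 in Sm22Cre and 4089 in floxed aortas. Acta2, the main smooth muscle actin, is listed at 0 in every group with the status HIDATA, so its level is not known here.

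In the vessel wall, endothelial cells make nitric oxide, which diffuses into the underlying smooth muscle and activates soluble guanylate cyclase. The cGMP formed there activates cGMP-dependent protein kinase, which lowers the calcium level and the calcium sensitivity of the contractile apparatus, so that the muscle relaxes. Natriuretic peptides feed the same second messenger through a receptor that is itself a guanylate cyclase, and phosphodiesterases end the signal.

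The levels of the 10 genes spanned from 3.45 FPKM, for Npr3 in Cdh5Cre, to 182.8 FPKM, for Npr1 in the same group. FPKM is scaled to length, so levels of different genes can be set side by side. In Cdh5Cre against floxed, however, ratios still followed transcript length and GC content, as described below. In floxed aortas the order from high to low was Mrvi1, Npr1, Gucy1b1, Gucy1a1, Pde3a, Pde5a, Pde1a, Nos3, Prkg1 and Npr3. In Sm22Cre aortas Nos3 stood just above Pde1a, and the rest of the order was that of floxed aortas. In Cdh5Cre aortas Npr1 stood above Mrvi1, Pde5a just above Pde3a, and Nos3 above Pde1a. The gene that stood higher in each of these pairs has the shorter transcript and the higher GC content. The orders were not corrected for either. Whether any neighbours in these orders differ beyond the spread between libraries is unknown.

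**Figure D1:**
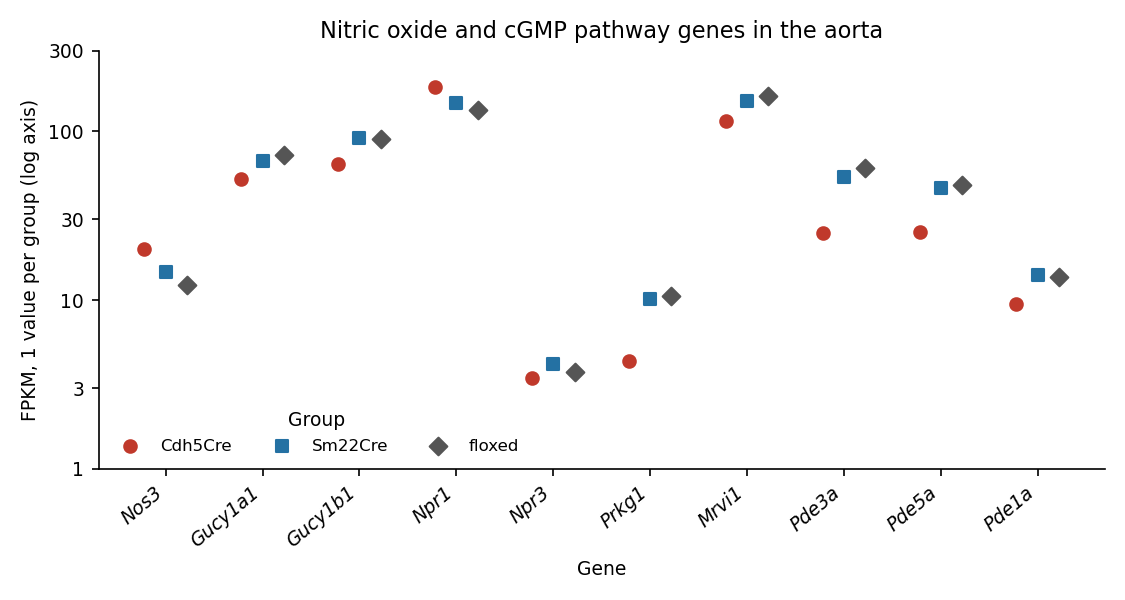
FPKM (vertical log axis) of the 10 pathway genes (horizontal axis) in Cdh5Cre (circles), Sm22Cre (squares) and floxed aortas (diamonds), 1 value per group with no error. The Cdh5Cre value is the lowest of the 3 for all genes but Nos3 and Npr1, where it is the highest, and the Sm22Cre and floxed values lie close together.

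Nos3 encodes endothelial nitric oxide synthase, the source of nitric oxide at the head of the pathway (ENSMUSG00000028978, mm9 chromosome 5, 23870628 to 23897961). Its level was 20.1 FPKM in Cdh5Cre, 14.7 FPKM in Sm22Cre and 12.3 FPKM in floxed aortas. Both Cre groups were higher than floxed, Cdh5Cre 1.64-fold and Sm22Cre 1.20-fold. Nos3 shares its listed locus with Atg9b, an autophagy gene that stood at 0.314 FPKM in Cdh5Cre, 0.357 in Sm22Cre and 0.368 in floxed aortas, and with Gm15587, at 1.52, 1.54 and 1.42 FPKM in the same groups. The libraries were stranded, but no source gives the strand setting of the counting, and fragments of overlapping genes may be shared.

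Gucy1a1 and Gucy1b1 encode the alpha-1 and beta-1 subunits of soluble guanylate cyclase, the enzyme that nitric oxide activates and that needs both subunits. The genes are neighbours on mm9 chromosome 3, Gucy1b1 (ENSMUSG00000028005) at 81835926 to 81878633 and Gucy1a1 (ENSMUSG00000033910) at 81896350 to 81949799, with 17716 bases between them. Gucy1a1 stood at 52.4 FPKM in Cdh5Cre, 66.6 FPKM in Sm22Cre and 72.4 FPKM in floxed aortas. Gucy1b1 stood at 64.2 FPKM in Cdh5Cre, 90.9 FPKM in Sm22Cre and 90.6 FPKM in floxed aortas. As deposited, the subunits differed to a like extent in Cdh5Cre against floxed, where Gucy1a1 was 27.6% lower and Gucy1b1 29.2% lower. They were less alike there after the correction for transcript length and GC content described below. In Sm22Cre against floxed, Gucy1a1 was 8.07% lower and Gucy1b1 0.39% higher. The ratio of Gucy1b1 to Gucy1a1 FPKM was 1.22 in Cdh5Cre, 1.37 in Sm22Cre and 1.25 in floxed aortas. Gucy1a2, the other alpha subunit gene, stood at 0.46 FPKM in Cdh5Cre, 1.47 in Sm22Cre and 1.63 in floxed aortas, far below Gucy1a1 in every group.

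Npr1 and Npr3 are the receptors of natriuretic peptides among the 10 genes. Npr1, the membrane guanylate cyclase that binds atrial natriuretic peptide (ENSMUSG00000027931, mm9 chromosome 3, 90254513 to 90269788), stood at 182.8 FPKM in Cdh5Cre, 147.1 FPKM in Sm22Cre and 132.8 FPKM in floxed aortas. Like Nos3, it was higher in both Cre groups, 1.38-fold in Cdh5Cre and 1.11-fold in Sm22Cre. Npr3, the receptor that clears natriuretic peptides (ENSMUSG00000022206, mm9 chromosome 15, 11769651 to 11835429), stood at 3.45 FPKM in Cdh5Cre, 4.20 FPKM in Sm22Cre and 3.75 FPKM in floxed aortas. The level of Npr1 was 53.1 times that of Npr3 in Cdh5Cre, 35.0 times in Sm22Cre and 35.4 times in floxed aortas. This ratio was not corrected for the trend in transcript length and GC content described below. With that trend removed, the log2 ratios of FPKM + 1 in Cdh5Cre against floxed were alike, 0.35 for Npr1 and 0.33 for Npr3.

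Prkg1 encodes cGMP-dependent protein kinase type I, the main effector of cGMP in vascular muscle (ENSMUSG00000052920, mm9 chromosome 19, 30643728 to 31839312). It stood at 4.34 FPKM in Cdh5Cre, 10.1 FPKM in Sm22Cre and 10.5 FPKM in floxed aortas. The Cdh5Cre value was 58.8% lower than the floxed value, while the Sm22Cre value was 4% lower. Cstf2t, an RNA processing gene listed at the same locus, stood at 9.06 FPKM in Cdh5Cre, 8.98 in Sm22Cre and 9.97 in floxed aortas and so did not share the difference of Prkg1.

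Mrvi1, also known as Irag1, encodes a substrate of the kinase that restrains calcium release through the inositol trisphosphate receptor (ENSMUSG00000005611, mm9 chromosome 7, 118011780 to 118125975). It was the most abundant of the 10 in floxed aortas, with 115.4 FPKM in Cdh5Cre, 150.3 FPKM in Sm22Cre and 161.7 FPKM in floxed aortas. Mrvi1 and its kinase did not differ to the same extent: the ratio of Mrvi1 to Prkg1 FPKM was 26.6 in Cdh5Cre, 14.8 in Sm22Cre and 15.3 in floxed aortas. This ratio was not corrected for length and GC content either. With that trend removed, the log2 ratios of FPKM + 1 in Cdh5Cre against floxed were -0.32 for Mrvi1 and -0.64 for Prkg1. Mrvi1 and Npr1 each share their listed locus with 1 other gene, and those genes, Gm16336 and Gm16048, stood below 1 FPKM in every group.

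Pde3a, Pde5a and Pde1a encode phosphodiesterases of 3 families. Pde5a, which hydrolyses cGMP specifically and is the target of sildenafil (ENSMUSG00000053965, mm9 chromosome 3, 122432076 to 122562292), stood at 25.5 FPKM in Cdh5Cre, 46.1 FPKM in Sm22Cre and 47.9 FPKM in floxed aortas. Pde3a, which hydrolyses cAMP and is inhibited by cGMP (ENSMUSG00000041741, mm9 chromosome 6, 141197790 to 141447872), stood at 25.1 FPKM in Cdh5Cre, 53.3 FPKM in Sm22Cre and 60.6 FPKM in floxed aortas. Pde1a, which calcium and calmodulin activate (ENSMUSG00000059173, mm9 chromosome 2, 79674610 to 79969632), stood at 9.49 FPKM in Cdh5Cre, 14.2 FPKM in Sm22Cre and 13.7 FPKM in floxed aortas. All 3 were lowest in Cdh5Cre, Pde3a by 58.7%, Pde5a by 46.9% and Pde1a by 31.0% below floxed. The ratio of Gucy1b1, on the synthesis side, to Pde5a, on the breakdown side, was 2.52 in Cdh5Cre, 1.97 in Sm22Cre and 1.89 in floxed aortas. It too was not corrected for length and GC content. With that trend removed, the log2 ratios of FPKM + 1 in Cdh5Cre against floxed were -0.30 for Gucy1b1 and -0.51 for Pde5a.

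The sequences before the annotated starts are shown for genes that lay lower together in Cdh5Cre, namely both cyclase subunits, Prkg1, Pde5a, Mrvi1 and Pde1a, and for Npr1, which lay higher. RefSeq windows on GRCm38.p6 were found for 8 of the 10 genes, and 250 bases up to the start are printed, 5′ to 3′ on the gene's strand. The coordinates are chr3:82145651-82145900 on the minus strand for Gucy1a1, chr3:82074712-82074961 on the minus strand for Gucy1b1, chr19:31765034-31765283 and chr19:31664371-31664620 on the minus strand for the 2 annotated starts of Prkg1, chr3:122728908-122729157 on the plus strand for Pde5a, chr7:110982462-110982711 on the minus strand for Mrvi1, chr2:80129413-80129662 on the minus strand for Pde1a and chr3:90465867-90466116 on the minus strand for Npr1. Where a gene other than Prkg1 has several annotated starts, the window of the most upstream start is printed. As a check, the bases just after each start were sought in the GENCODE transcripts of the gene. They were found for all printed windows but those of Gucy1a1 and Gucy1b1, whose printed starts are thus less certain. They were also found for the other Gucy1a1 window, which is not printed and holds no GC box. Capitals mark the GC box GGGCGG, or CCGCCC where it lies on the other strand.
Gucy1a1: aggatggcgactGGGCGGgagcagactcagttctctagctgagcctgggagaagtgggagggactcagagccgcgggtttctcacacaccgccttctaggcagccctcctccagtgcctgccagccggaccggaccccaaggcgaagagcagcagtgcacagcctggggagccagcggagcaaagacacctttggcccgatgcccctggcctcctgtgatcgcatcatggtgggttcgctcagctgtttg
Gucy1b1: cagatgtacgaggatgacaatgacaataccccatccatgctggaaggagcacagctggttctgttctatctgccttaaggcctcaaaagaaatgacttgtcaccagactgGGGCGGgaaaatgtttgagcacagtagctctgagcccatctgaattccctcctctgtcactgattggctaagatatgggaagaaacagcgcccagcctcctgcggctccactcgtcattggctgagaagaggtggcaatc
Prkg1 upstream start: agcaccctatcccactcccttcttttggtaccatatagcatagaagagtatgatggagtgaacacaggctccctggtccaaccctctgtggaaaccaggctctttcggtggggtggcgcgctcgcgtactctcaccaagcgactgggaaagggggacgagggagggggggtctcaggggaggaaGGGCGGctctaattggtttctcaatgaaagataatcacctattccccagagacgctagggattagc
Prkg1 downstream start: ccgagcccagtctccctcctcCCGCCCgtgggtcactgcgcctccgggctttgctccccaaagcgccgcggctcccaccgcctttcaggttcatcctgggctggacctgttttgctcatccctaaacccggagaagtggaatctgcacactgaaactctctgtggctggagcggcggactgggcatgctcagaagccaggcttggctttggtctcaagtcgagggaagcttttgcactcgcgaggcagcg
Pde5a: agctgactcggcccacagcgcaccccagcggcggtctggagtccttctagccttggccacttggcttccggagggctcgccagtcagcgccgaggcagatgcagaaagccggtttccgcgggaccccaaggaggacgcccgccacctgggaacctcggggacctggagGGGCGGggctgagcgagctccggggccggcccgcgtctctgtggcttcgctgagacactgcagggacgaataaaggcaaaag
Mrvi1: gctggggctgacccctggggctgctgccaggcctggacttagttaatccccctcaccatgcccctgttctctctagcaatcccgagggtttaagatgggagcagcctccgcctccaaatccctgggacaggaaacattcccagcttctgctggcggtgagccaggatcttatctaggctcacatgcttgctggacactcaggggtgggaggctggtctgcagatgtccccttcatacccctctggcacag
Pde1a: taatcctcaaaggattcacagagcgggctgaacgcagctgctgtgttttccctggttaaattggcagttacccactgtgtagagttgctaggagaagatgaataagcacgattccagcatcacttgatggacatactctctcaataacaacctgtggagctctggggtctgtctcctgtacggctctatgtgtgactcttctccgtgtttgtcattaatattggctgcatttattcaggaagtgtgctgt
Npr1: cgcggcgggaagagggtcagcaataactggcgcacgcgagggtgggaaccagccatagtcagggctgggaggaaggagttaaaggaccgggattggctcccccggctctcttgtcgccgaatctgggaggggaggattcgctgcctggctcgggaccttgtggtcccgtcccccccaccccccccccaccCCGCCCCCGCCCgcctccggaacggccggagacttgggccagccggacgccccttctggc
Of all 14 windows of the 8 genes, 6 hold the GC box, against 32.7% of all 32851 windows of this length. They are both windows of Prkg1, 1 of 2 of Gucy1a1 and the single windows of Gucy1b1, Pde5a and Npr1. None of the 4 windows of Pde1a, the 2 of Mrvi1 and the 1 of Npr3 holds it. Genes that lay lower in Cdh5Cre were thus found both with and without the GC box. The CArG box, the site of serum response factor in many muscle genes, was in none of the 14 windows of the 8 genes and in 1.47% of all windows. Searched on both strands as well, TATAAA was in 2 windows of Pde1a and in 12.4% of all, while CACGTG (6.02% of all) and TGACGTCA (1.55% of all) were in no window of the 8 genes. GC content was 70.4% in the Npr1 window, 68.4% in that of Pde5a, 64.0% in that of Gucy1a1, 59.6% in that of Mrvi1, 51.2% in that of Gucy1b1, 46.0% in that of Pde1a, and 55.2% and 62.8% in those of Prkg1, against a median of 52.4% over all windows.

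Cdh5Cre against floxed asks about receptor loss aimed at the endothelium, and here the cyclase subunits, the kinase, its substrate Mrvi1 and the phosphodiesterases were lower, while Nos3 and Npr1 were higher. Differences are given from here on as log2 ratios of FPKM + 1, a scale that understates differences of low genes. Of the 10 genes, 8 were below 0, against 48.2% of all genes, with a median of -0.49 against 0.02 for all genes. Prkg1 (-1.11) and Pde3a (-1.24) were lower by 2-fold or more, as were 0.703% of all genes, and none of the 10 was higher by 2-fold, as were 1.19%. Only Nos3 and Npr1 were above 0, as were 51.7% of all genes. At 1.5-fold, Pde5a (-0.89) joined them on the lower side, where 6.02% of all genes lay, and Nos3 (0.67) was the 1 gene on the higher side, with 8.33% of all genes. Gucy1a1 (-0.46), Gucy1b1 (-0.49), Pde1a (-0.49) and Mrvi1 (-0.48) lay between -0.49 and -0.46. Npr1 was at 0.46 and Npr3 at -0.10, and the direction of Npr3 turned with the correction described next.

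Ratios in this comparison followed transcript length and GC content across the whole transcriptome, so the 10 genes have to be read against both. Spearman's rho across 12317 protein-coding genes, which are not independent replicates, was -0.58 with length and 0.53 with GC content, and a smooth trend in both accounted for 45.7% of the variance. All 10 genes have transcripts longer than the median of 3120 bases and 7 lie below the median GC content of 50.4%. The longest transcripts, those of Pde3a (12302 bases), Pde5a (7603) and Prkg1 (6976), belonged to the lowest ratios, but Npr3 (6892 bases) did not lie with them. Nos3 and Npr1, the genes with ratios above 0, have the highest GC contents, 58.2% and 57.4%. Among 1871 genes of at least 4000 bases and GC content under 47%, the median ratio was -0.40, and among 1941 genes at 57% GC or more it was 0.30. These limits were chosen after the values of the 10 genes were seen.

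With the trend removed the differences of all members but Npr3 were smaller. Pde3a came to -0.69, Prkg1 to -0.64 and Pde5a to -0.51, still the lowest of the 10. No member reached 2-fold, on either side, as did 0.138% of protein-coding genes on the lower and 0.479% on the higher side. Pde3a and Prkg1 remained lower by 1.5-fold or more, as were 1.92% of protein-coding genes, and no member was higher by 1.5-fold, as were 2.87%. As deposited, 0.211% of all genes lay below Pde3a and 0.38% below Prkg1, and with the trend removed 1.04% and 1.3% of protein-coding genes did. Mrvi1 came to -0.32, Gucy1b1 to -0.30, and Gucy1a1 and Pde1a to -0.16 each. Nos3 was at 0.54 and Npr1 at 0.35, and Npr3 turned to 0.33, so that 7 of the 10 genes remained below 0, against 52.5% of protein-coding genes, with a median of -0.23. What part of the differences comes from length and GC content was not tested beyond this removal.

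**Figure D2:**
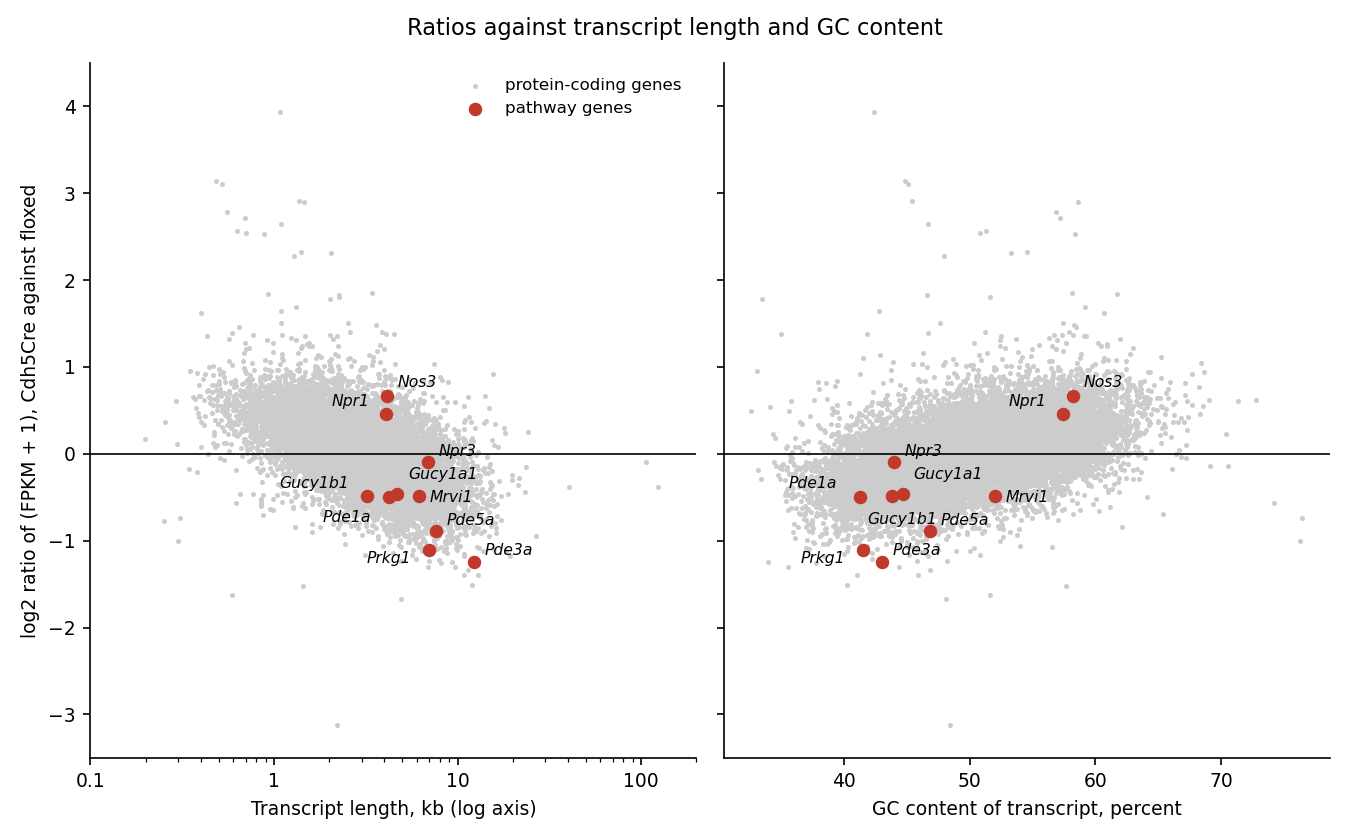
Log2 ratio of FPKM + 1 in Cdh5Cre against floxed (vertical axis) against transcript length in kb (left, log axis) and GC content in percent (right), for 12317 protein-coding genes (grey) and the 10 pathway genes (red). Pde3a, Prkg1 and Pde5a lie at the lower edge of the cloud among long transcripts, and Nos3 and Npr1 lie above 0 among GC-rich ones.

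Sm22Cre against floxed asks about receptor loss aimed at smooth muscle, in which most of these genes act. Here the pathway differed little. The 10 log2 ratios lay between -0.18, for Pde3a, and 0.25, for Nos3, with 5 below 0, against 47.9% of all genes, and 5 above 0, against 52% of all genes. Their median was -0.02, against 0.0050 for all genes. None reached 2-fold, as 0.33% of all genes did on the lower and 0.302% on the higher side. None reached 1.5-fold either, as 0.921% of all genes did on the lower and 0.619% on the higher side. Prkg1 and Pde5a were each at -0.05, Gucy1a1 at -0.12, Mrvi1 at -0.10, Gucy1b1 at 0.0055, Pde1a at 0.04, Npr3 at 0.13 and Npr1 at 0.15. Length and GC content accounted for 3.86% of the variance in this comparison, and the 10 ratios with the trend removed lay between -0.11 and 0.28. Of them, 6 were below 0, as were 49.5% of protein-coding genes. None reached 1.5-fold, as 0.641% did on the lower and 0.284% on the higher side, or 2-fold, as 0.195% did on the lower and 0.106% on the higher side. Nos3 had the highest ratio of the 10 here as in Cdh5Cre against floxed. The 2 comparisons share the floxed values.

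Sm22Cre against Cdh5Cre sets both Cre groups side by side without the floxed values. Prkg1 and Pde3a were each higher in Sm22Cre, at 1.06, past 2-fold, as were 0.401% of all genes. Pde5a was at 0.83, and these 3 genes passed 1.5-fold on the higher side, where 4.34% of all genes lay. Of the 10 genes 8 were above 0, against 49.1% of all genes, and 2 below 0, against 50.7%. Pde1a was at 0.53, Gucy1b1 at 0.50, Mrvi1 at 0.38, Gucy1a1 at 0.34 and Npr3 at 0.23. Nos3 was lower, at -0.42, as was Npr1, at -0.31, and neither passed 1.5-fold, as 7.57% of all genes did on the lower side, or 2-fold, as 1.23% did. The median of the 10 was 0.44, against -0.01 for all genes. Of the variance, 47.1% went with length and GC content. Without this trend Prkg1 was at 0.62, Pde3a at 0.58, Pde5a at 0.50 and Gucy1a1 at 0.05, and Npr3 turned to -0.16. The median was 0.23, and 3 genes were below 0, as were 45.3% of protein-coding genes. Prkg1 alone was higher by 1.5-fold, as were 1.08%, and none lower, as were 2.87%. None passed 2-fold, as 0.065% of protein-coding genes did on the higher and 0.609% on the lower side.

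**Figure D3:**
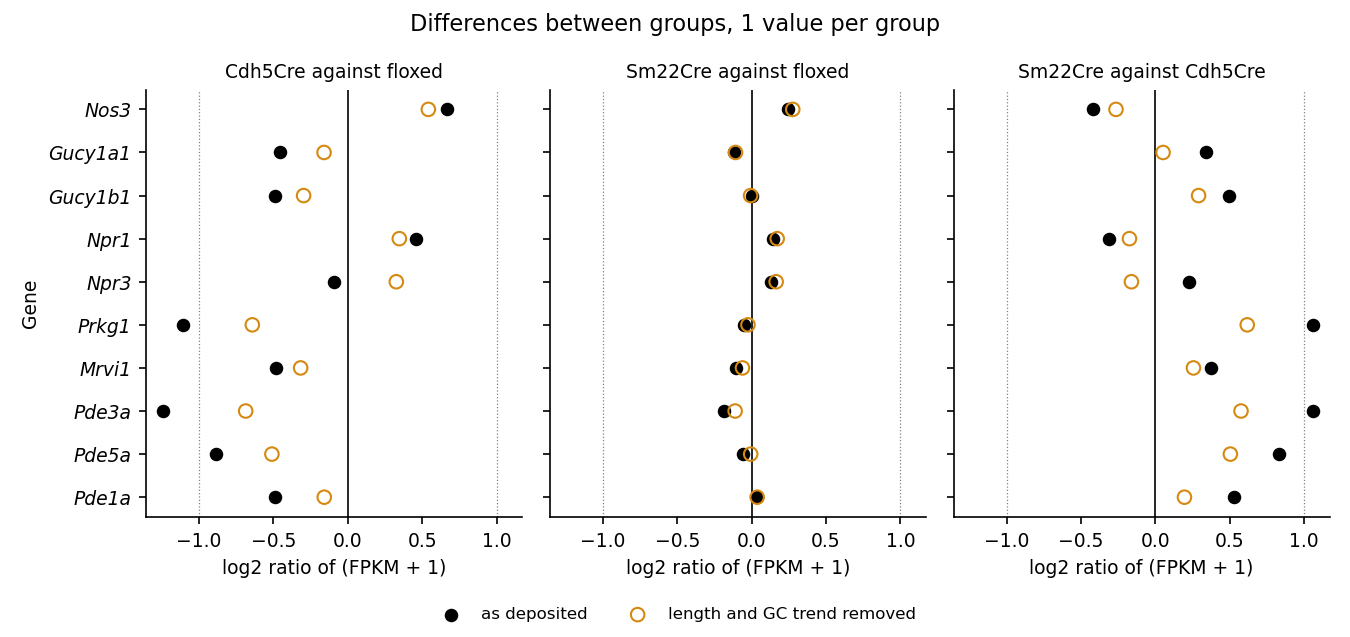
Log2 ratio of FPKM + 1 (horizontal axis) of the 10 pathway genes in the 3 comparisons, as deposited (black) and with the trend in transcript length and GC content removed (open), with dotted lines at 2-fold. Prkg1 and Pde3a pass 2-fold as deposited wherever Cdh5Cre is compared and no gene does with the trend removed. In Sm22Cre against floxed all values lie between -0.18 and 0.28.

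Whole aorta mixes cell types, and in bulk tissue fewer cells of a type and less RNA per cell cannot be told apart. Nos3 was therefore set beside 20 endothelial markers. In Cdh5Cre against floxed 18 of the 20 were above 0, as were 51.7% of all genes. The marker median was 0.52, and Nos3, at 0.67, lay above 13 of the markers and below 7. The summed level of the markers was 954 FPKM in Cdh5Cre, 681 in Sm22Cre and 628 in floxed aortas, and none was at 0. Nos3 exceeded the marker median by 0.15, and by 0.04 with the trend removed. The ratio of Nos3 to Cdh5, the endothelial cadherin gene, was 1.05 in Cdh5Cre, 1.09 in Sm22Cre and 0.897 in floxed aortas. The ratio of Nos3 to Pecam1, another of the markers, was 0.123 in Cdh5Cre, 0.0974 in Sm22Cre and 0.0899 in floxed aortas. Neither ratio was corrected for length and GC content. In Sm22Cre against floxed the marker median was 0.10 and 4 of the 20 lay above Nos3, and in Sm22Cre against Cdh5Cre the median was -0.43, beside -0.42 for Nos3. The part of endothelial content in the difference of Nos3 was not tested. Among the markers, Cldn5, a tight junction gene, and Sox18, an endothelial transcription factor, both had a log2 ratio of 1.24 in Cdh5Cre against floxed, and with the trend removed Emcn, an endothelial mucin gene, had the largest, at 1.26. Cldn5 stood at 41.3 FPKM in Cdh5Cre, 20.8 in Sm22Cre and 16.9 in floxed aortas. Sox18 stood at 22.8, 12.5 and 9.08 FPKM in the same groups, and Pecam1, the most abundant, whose status was FAIL, at 162.9, 151.4 and 136.4 FPKM.

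The genes that act in muscle were set beside 19 smooth muscle markers with an estimate. In Cdh5Cre against floxed 9 were above and 10 below 0, as were 51.7% and 48.2% of all genes. The median of the markers was -0.04, and -0.14 with the trend removed. Their ratios ranged from -1.05, for Cald1, which encodes the actin-binding protein caldesmon, to 0.66, so that Prkg1 and Pde3a lay below all 19. Cald1 stood at 352.3 FPKM in Cdh5Cre, 670.1 in Sm22Cre and 730.1 in floxed aortas, and it has a status of FAIL and a locus listed for 5 genes. The markers summed to 13613 FPKM in Cdh5Cre, 12606 in Sm22Cre and 12939 in floxed aortas, and Acta2, listed at 0, is not in these sums. Myh11, the smooth muscle myosin gene, has a transcript of 6549 bases and a status of FAIL. Its GC content is 53.1%, against 41.5% for Prkg1, 46.8% for Pde5a and 52.0% for Mrvi1. Levels per Myh11 therefore still hold a part of the length and GC trend, which was not removed from them. Per 1000 FPKM of Myh11, Prkg1 stood at 3.80 in Cdh5Cre, 7.99 in Sm22Cre and 7.86 in floxed aortas. Pde5a stood at 22.3, 36.4 and 35.7 and Mrvi1 at 101.1, 118.6 and 120.6 on the same scale and in the same order of groups. Myocd, a coactivator of smooth muscle genes, had the largest difference of the markers in Sm22Cre against floxed, with 22.9 FPKM in Cdh5Cre, 35.7 in Sm22Cre and 28.9 in floxed aortas, and a status of FAIL.

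Platelets and heart muscle also contain parts of this pathway, so their markers were read as well. Above 0 lay 51.7% of all genes in Cdh5Cre against floxed and 52% in Sm22Cre against floxed. All 10 platelet markers were above 0 in Cdh5Cre against floxed, with a median of 1.59, and in Sm22Cre against floxed, with a median of 0.50. They summed to 282 FPKM in Cdh5Cre, 93.0 in Sm22Cre and 49.3 in floxed aortas, with the chemokine gene Ppbp at 153.4, 36.1 and 9.12 FPKM and Pf4, the most abundant in floxed aortas, at 55.5, 31.0 and 26.9 FPKM. In Cdh5Cre against floxed Prkg1, Pde3a, Pde5a, Mrvi1 and both cyclase subunits, which platelets also express, were lower. The part of platelet RNA in the values of these genes was not tested. The 6 erythroid markers with at least 1 FPKM had a median of 2.56 in Cdh5Cre and 1.11 in Sm22Cre, each against floxed. Fibroblast markers had medians of 0.46 in Cdh5Cre and -0.03 in Sm22Cre, each against floxed, with sums of 8379 FPKM in Cdh5Cre, 5963 in Sm22Cre and 6209 in floxed aortas. Adipocyte markers had medians of 0.15 in Cdh5Cre, which turned to -0.04 with the trend removed, and 0.02 in Sm22Cre, each against floxed. With the trend removed the medians in Cdh5Cre against floxed were 1.45 for platelet, 2.09 for erythroid and 0.41 for fibroblast markers. Heart muscle markers had a median of 0.57 in Cdh5Cre against floxed, which came to 0.23 with the trend removed. In Sm22Cre against floxed, where 47.9% of all genes were below 0, all 12 heart muscle markers were, with a median of -1.13. Their sums were 1589.5 FPKM in Cdh5Cre, 458 in Sm22Cre and 1018 in floxed aortas. Of single markers, the fibroblast gene Clec3b stood at 353.9 FPKM in Cdh5Cre, 151.1 in Sm22Cre and 145.3 in floxed aortas, and the heart troponin gene Tnnt2, whose status was FAIL, at 308.6, 103.6 and 189.3 FPKM. No defining marker of these 5 cell types was at 0, and the part of blood, fibroblast, fat or heart cells in the pathway differences was not tested.

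**Figure D4:**
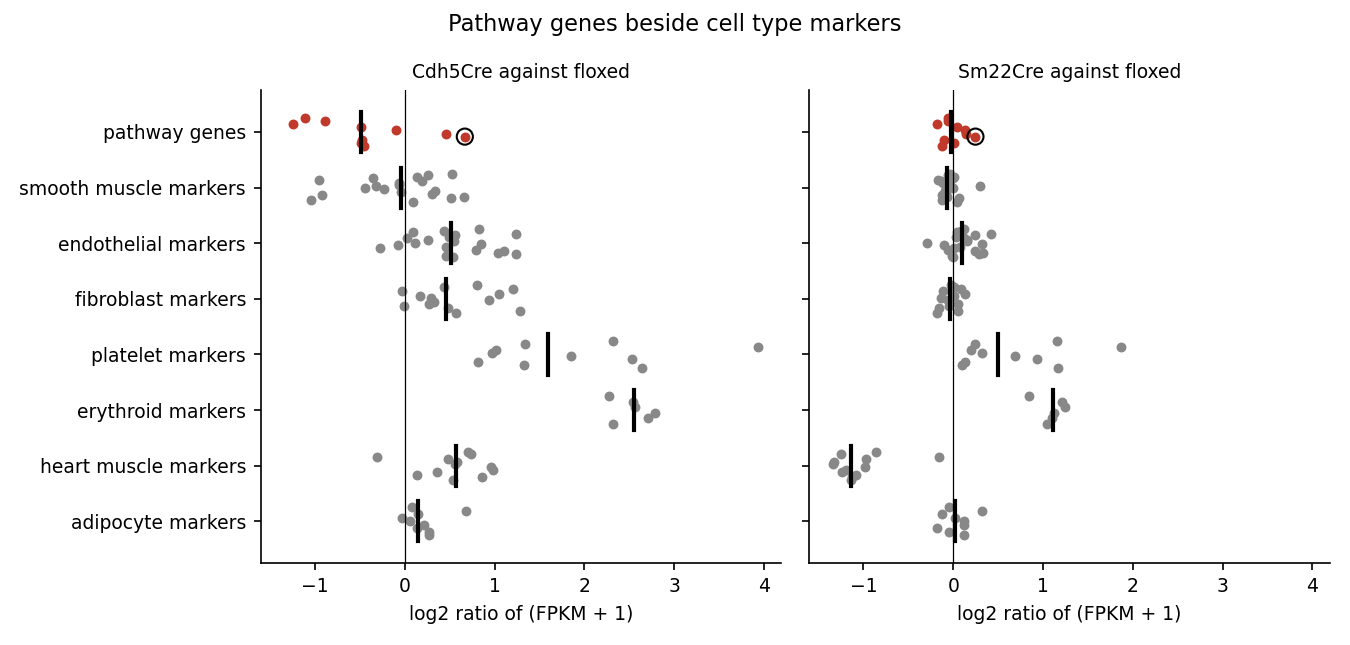
Log2 ratio of FPKM + 1 (horizontal axes, shared scale) of the 10 pathway genes (red, Nos3 circled) and of the markers of 7 cell types (grey), with the median of each list as a bar, for Cdh5Cre against floxed (left) and Sm22Cre against floxed (right). On the left the pathway median of -0.49 lies below the medians of all 7 marker lists, and Nos3 lies beside the endothelial markers.

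The wider pathway was described through 79 further genes in 4 lists, of which 63 were at 1 FPKM or more in some group. In Cdh5Cre against floxed their median was -0.11, with 29 above and 34 below 0, as were 51.7% and 48.2% of all genes. Gchfr alone was higher by 2-fold, as were 1.19% of all genes, and none was lower by 2-fold, as were 0.703%. At 1.5-fold 9.52% were higher and 14.3% lower, against the 8.33% and 6.02% of all genes given above. With the trend removed the median of the 63 was -0.04. Only Gucy1a2 (-0.86) and Adcy9 (-0.81) were then lower by 1.5-fold, as were 1.92% of protein-coding genes. Gchfr alone (0.84) was then higher by 1.5-fold, as were 2.87%. In Sm22Cre against floxed the median was 0.00153, none was higher by 1.5-fold, as were 0.619% of all genes, and 2 were lower, Nppa and Pln, as were 0.921%. In Sm22Cre against Cdh5Cre 5 were higher and 6 lower by 1.5-fold, as were 4.34% and 7.57% of all genes, and Nppa was the 1 gene past 2-fold, on the lower side, where 1.23% of all genes lay. These counts are on log2(FPKM + 1), and as plain FPKM, low genes passed 2-fold on both sides. Against floxed, Cdh5Cre was 3.56-fold lower for Gucy1a2 and 2.33-fold higher for Nppb. Against Cdh5Cre, Sm22Cre was 4.71-fold lower for Nppb and 3.22-fold higher for Gucy1a2.

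Among 18 genes of nitric oxide synthesis and its regulation, 13 were above 0 in Cdh5Cre against floxed, as were 51.7% of all genes. The median of the 18 was 0.23 as deposited and 0.05 with the trend removed. Gchfr, the feedback regulator of the enzyme that starts synthesis of the cofactor tetrahydrobiopterin, stood at 4.99 FPKM in Cdh5Cre, 2.11 in Sm22Cre and 1.18 in floxed aortas. Ddah2, which is held to break down the endogenous synthase inhibitor ADMA, stood at 105.2 FPKM in Cdh5Cre, 64.4 in Sm22Cre and 62.4 in floxed aortas. Slc7a2, a carrier of the substrate arginine, went the other way, with 8.44 FPKM in Cdh5Cre, 11.5 in Sm22Cre and 14.5 in floxed aortas. The chaperone genes differed in Sm22Cre: Hsp90aa1 stood at 221.7 FPKM in Sm22Cre against 162.9 in floxed aortas, and the most abundant gene of the list, Hsp90ab1, at 702.9 against 642.0 FPKM. The highest value of the other synthase genes, Nos1 and Nos2, was 0.322 FPKM, that of Nos2 in Cdh5Cre.

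Natriuretic peptides and other cyclases had 11 measured genes. In Cdh5Cre against floxed 5 were above and 6 below 0, as were 51.7% and 48.2% of all genes. The list had a median of -0.11 as deposited and -0.14 with the trend removed. Nppa, the gene of atrial natriuretic peptide, stood at 71.2 FPKM in Cdh5Cre, 25.5 in Sm22Cre and 50.8 in floxed aortas, in the order of the heart muscle marker sums, of which it is also a member. Nppb, which encodes the B-type peptide, stood at 1.70, 0.36 and 0.73 FPKM in the same groups. Adcy9, an adenylate cyclase gene, stood at 4.91 FPKM in Cdh5Cre, 7.72 in Sm22Cre and 9.03 in floxed aortas. Adcy5, the most abundant of the list, stood at 163.6 FPKM in Cdh5Cre, 164.8 in Sm22Cre and 189.0 in floxed aortas. Corin, the protease that activates the atrial peptide, stood at 3.15, 2.45 and 3.05 FPKM.

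Of 13 other phosphodiesterase and exporter genes, 8 were below 0 in Cdh5Cre against floxed, as were 48.2% of all genes. The median of the 13 was -0.15 as deposited, which turned to 0.05 with the trend removed. Pde9a, a cGMP-specific enzyme, was at 5.44 FPKM in Cdh5Cre, 3.52 in Sm22Cre and 3.15 in floxed aortas, while Pde4d, specific for cAMP, was at 4.55, 7.12 and 7.40 FPKM. Pde1c, a relative of Pde1a, was at 0.78, 1.97 and 1.56 FPKM. Abcc5, a cyclic nucleotide exporter, was at 29.0 FPKM in Cdh5Cre, 31.9 in Sm22Cre and 25.3 in floxed aortas, Pde4a at 17.3, 17.0 and 19.3 FPKM, and Pde4b at 13.7, 20.0 and 19.8 FPKM. In floxed aortas Pde3a, at 60.6 FPKM, and Pde5a, at 47.9 FPKM, exceeded all genes of this list.

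Among 21 kinases and targets downstream of cGMP and cAMP, 15 were below 0 in Cdh5Cre against floxed, as were 48.2% of all genes. The median of the 21 was -0.19, and -0.20 with the trend removed. As deposited, the 3 genes with the largest differences were Ppp1cb, Kcnma1 and Ppp1r12a. Ppp1cb, the catalytic subunit of myosin phosphatase, which the kinase acts on, stood at 76.1 FPKM in Cdh5Cre, 144.0 in Sm22Cre and 148.6 in floxed aortas, and Ppp1r12a, the targeting subunit, at 67.9, 125.7 and 125.5 FPKM. Kcnma1, the pore of the calcium-activated potassium channel, stood at 7.46, 13.2 and 14.9 FPKM. Other parts of these complexes differed less or the other way: in Cdh5Cre against floxed the log2 ratio was -0.38 for Ppp1r12b, a further targeting subunit, -0.30 for Kcnmb1, the channel's beta subunit, and 0.74 for Ppp1r14a, an inhibitor of myosin phosphatase. With the trend removed these came to -0.13 for Ppp1r12b, -0.09 for Kcnmb1 and 0.19 for Ppp1r14a. As for Prkg1, Pde3a and Pde5a, the Sm22Cre values of these 3 genes lay near floxed and the Cdh5Cre values apart, and with the trend removed their log2 ratios in Cdh5Cre against floxed were -0.52 for Ppp1cb, -0.53 for Ppp1r12a and -0.41 for Kcnma1. Rgs2, at -0.48, Vasp, at -0.45, and Prkacb, at -0.43, then lay below Kcnma1. Pln, a regulator of the calcium pump that heart muscle also expresses, stood at 36.5 FPKM in Cdh5Cre, 20.3 in Sm22Cre and 40.2 in floxed aortas, and the pump gene Atp2a2 at 184.2, 213.1 and 259.6 FPKM. Crip1, the most abundant of the list, stood at 674.6 FPKM in Cdh5Cre, 611.7 in Sm22Cre and 512.7 in floxed aortas. The status was FAIL for Hsp90aa1, Adcy9, Corin, Abcc5, Ppp1r12a, Kcnma1 and Prkacb in all comparisons and for Slc7a2 in both with Sm22Cre. The listed loci of Ppp1cb, Ppp1r12b, Kcnmb1, Vasp, Pln, Pde4d, Adcy5, Adcy9, Nppa, Corin and Slc7a2 are shared with other genes, so their values are less certain.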

How the data were processed

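Stranded poly-A libraries of aortic RNA were sequenced as paired 75-base reads, per the labels' protocols. The submitters' processing notes name TopHat2 2.0.8, Bowtie2 2.1.0, SAMtools 0.1.7, Cufflinks 1.3.0 and build mm9, with no role or option. The deposited FPKM values are the authors' own, 1 per gene and group, per the file headers. The 3 libraries of a group had thus been combined, the depth is unknown, low values showed no steps of whole reads, and no error, interval or p-value could be computed.

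Genes at 1 FPKM or more in some group were kept, 14225 of 37668, without 7 whose status was HIDATA. Values with the status FAIL were kept, and all 10 members had the status OK. Symbols, transcript lengths and GC contents came from GENCODE M21, on another build. To the starts of mm9 loci 1 was added. Ratios were taken on log2(FPKM + 1), with 2-fold or 1.5-fold as rules of size. The trend in length and GC content was a degree 3 polynomial. It was tried on simulated data whose trend was linear in log2 length and GC content, a form that the polynomial contains. That trial therefore cannot show how well the polynomial fits the trend in the real data. Python 3.11.15, numpy 2.4.6 and pandas 2.3.3 were used.

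The members, lists and rules were chosen with earlier results of these data known. Named are all members, the targeted gene, the genes of each pathway list with the 3 largest ratios in each comparison and its most abundant gene, genes of the marker lists chosen likewise with 1 ratio each, and the genes most like Prkg1 and Nos3. Cdh5, Myh11, Acta2, Nos1, Nos2, Emcn, Ppp1r12b, Ppp1r14a, Kcnmb1, Rgs2, Vasp, Prkacb and the genes that share a locus with a member were chosen after their values were seen.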

Additional observations from a re-analysis of the deposited data

How the results depend on the processing

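No paired analysis was possible because the groups share no replicate numbers and the table holds 1 value per group, and for the same reason no library could be left out. In Cdh5Cre against floxed, a pseudocount of 0.1 or none, no filter on low values, a filter at 5 FPKM, which removes Npr3, a median ratio of 0 over all genes and status OK left the members' median between -0.50 and -0.49. Quantile normalization brought it to -0.61, and equal FPKM sums without globin and mitochondrial genes to -0.69, with 3 members lower by 2-fold. Equal sums also moved the median of all genes to -0.16 there and to 0.16 in Sm22Cre against Cdh5Cre, and relative to it the members' medians were -0.53 and 0.47. Removing the length and GC trend changed most. For Cdh5Cre against floxed the members' median became -0.23, and for Sm22Cre against Cdh5Cre it became 0.23. The members past 2-fold became 0 in both, and Npr3 turned to 0.33 and to -0.16. Nos3 then exceeded the endothelial median by 0.044 in Cdh5Cre against floxed. At 1.5-fold, 1 member was higher in Cdh5Cre against floxed. Gucy1b1, reported at 0.0055 for Sm22Cre against floxed, came to -0.0021 with equal sums and to -0.0066 with the trend removed. Npr1, reported at 0.46 for Cdh5Cre against floxed, came to 0.28 with quantile normalization and to 0.25 with equal sums. For Sm22Cre against Cdh5Cre, where Npr1 was reported at -0.31, the same settings gave -0.14 and -0.11. The causes were not tested.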

Other observations

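The genes whose pattern was most like Prkg1 and Nos3 were sought among 7007 genes at 10 FPKM or more in floxed aortas, by the distance between the log2 ratios of Cdh5Cre and Sm22Cre, each against floxed. Over these 3 group values, Nbeal1, Usp53 and Slc8a1 lay nearest to Prkg1. Slc8a1, the sodium-calcium exchanger gene, stood at 9.64 FPKM in Cdh5Cre, 22.1 in Sm22Cre and 22.1 in floxed aortas. Nbeal1 stood at 5.92, 13.3 and 13.8 FPKM and Usp53 at 4.36, 10.1 and 10.3 FPKM in the same order of groups. Their transcripts, like that of Prkg1, are long, at 15731, 6185 and 18464 bases for Nbeal1, Usp53 and Slc8a1, and their GC content is between 37.2% and 40.3%. Nearest to Nos3 were Cars, Irf3 and Atoh8, with GC contents of 53.7%, 56.7% and 62.2%. Irf3, an interferon regulatory factor gene, stood at 51.7 FPKM in Cdh5Cre, 39.1 in Sm22Cre and 32.4 in floxed aortas.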
